A study of Mus musculus with 105 samples.

Results

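The genes described here encode the proteasome, the particle that degrades ubiquitin-tagged proteins. Members were all genes named Psma, Psmb, Psmc or Psmd with a number in the 3 deposited tables, which gave 39 of 20756 genes: 19 of the core (Psma and Psmb) and 20 of the cap (Psmc and Psmd). They were measured in C57BL/6 mouse oocytes from females of 5 or 8 weeks given gonadotropins at 5 IU each, per the labels' protocols. The series used ribosome footprints (Ribo-seq, fragments protected by ribosomes), mRNA by Smart-seq2 (cDNA made from polyadenylated RNA) and lengths of poly(A) tails.

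The groups were 20 single wild-type oocytes at metaphase II (MII, the ovulated egg) and 18 single wild-type full-grown oocytes (FGO, before meiosis resumes), each with footprints. MII oocytes of Btg4 KO and Btg4 Het genotype had 3 footprint libraries each and 2 mRNA libraries each. Tail lengths came from 2 MII Btg4 KO libraries and from 1 library each of MII Btg4 Het, MII WT and FGO WT, the last labelled SN. Btg4 is an adaptor that brings the CCR4-NOT deadenylase to mRNA in maturing oocytes. The sources used here do not give the part of Btg4 that the KO lacks, the oocytes per Btg4 library or the animals. The controls of the KO were heterozygous, not wild type. With no animals named, p-values describe only how far these libraries vary, which may be technical.

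The core of the proteasome is a barrel of beta rings closed at each end by an alpha ring, in which Psmb5, Psmb6 and Psmb7 carry the proteolytic sites. The cap recognises and unfolds substrates: Psmc1 to Psmc6 form its ATPase ring, Psmd1, Psmd2 and Psmd4 complete the base, and Psmd3, Psmd6, Psmd7, Psmd8, Psmd11, Psmd12, Psmd13 and the deubiquitinase Psmd14 belong to the lid. Psmd5, Psmd9 and Psmd10 are chaperones that leave the finished particle, Psmb8 to Psmb10 replace standard subunits in immune cells, Psmb11 is known from the thymus and Psma8 from male germ cells. Full-grown oocytes are known to be nearly silent in transcription, so that maturation runs on stored mRNA and its translation.

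FPKM, used below for footprints and mRNA, are fragments scaled to gene length and library size, hence relative to each library's total. In the Btg4 and tail libraries, which are not labelled as single oocytes, fewer cells of a type and less RNA per cell cannot be told apart. Genes at 1 FPKM or more numbered 3645 to 6351 in single MII oocytes and 4338 to 8826 in single FGO. Footprint reads, recovered for 10328 genes from the steps between low values, numbered 20983 to 104825 per MII oocyte and 42991 to 379364 per FGO. Over the same genes they numbered 246764 to 420680 in the KO and 138957 to 449758 in the Het footprint libraries. Depth is unknown for mRNA and for tails. All 10 genes listed as oocyte markers, such as Zp3 and Gdf9, had medians above 0 in both stages, though Zp1, Zp3 and Bmp15 were at 0 in the lowest MII oocyte and Mos in the lowest FGO, with a summed level of 1066 to 10951 FPKM per MII oocyte and 1622 to 23949 FPKM per FGO. The 15 markers of follicle cells summed to 1.13 to 40.0 FPKM per MII oocyte and 0 to 104 FPKM per FGO, and the 8 blood and immune markers in the table to 0 to 166 FPKM per MII oocyte and 0 to 768 FPKM per FGO. Of the follicle markers Fshr, Has2, Tnfaip6 and Krt8 were at 0 in every MII oocyte and Has2 in every FGO, and the part of such RNA in the results was not tested. MII oocytes 2 and 4 stood apart from the other MII oocytes in the number of members above 0, where they were closer to FGO. In other values they were not: Psma2 had 307 and 204 FPKM and Psmd3 84.9 and 33.8 FPKM in these oocytes. The FGO medians of these genes were 91.6 and 9.49 FPKM. Results that rest on these 2 oocytes are given with and without them. As they were picked by the members' own values, leaving them out is a description and not an independent check.

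Maturation was examined by setting footprints of single MII oocytes against those of single FGO. Most subunits had lower footprints in MII: 28 of the 36 members that averaged 1 FPKM or more in either stage had a log2 ratio below 0, and the median ratio was -1.35, against -0.26 over all 10068 genes. The 8 members above 0 compare with 44.9% of all genes. A small set went the other way, led by the lid subunit Psmd3 and the alpha subunit Psma2. The summed footprints of all members differed less than the median ratio, with a median of 1009 FPKM per MII oocyte and 1089 FPKM per FGO. As a share of all FPKM these sums had medians of 0.289% in MII and 0.385% in FGO. Each ratio sets the mean FPKM plus 1 of MII over that of FGO, on the log2 scale. Oocytes of 1 stage are cells of 1 sample, since no animals are named, so none of these differences was tested. Psmb9, Psmb10 and Psmb11 averaged under 1 FPKM in both stages.

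Psmd3 had 28.9, 87.4 and 168 FPKM as the lowest, median and highest of 20 MII oocytes, against 0, 9.49 and 34.6 FPKM in 18 FGO, a log2 ratio of 2.90. Nearly every MII oocyte lay above nearly every FGO, with MII higher in 98.9% of oocyte pairs. Psma2 had 129, 393 and 896 FPKM in MII and 16.2, 91.6 and 290 FPKM in FGO, with a ratio of 2.06. It was the most abundant subunit of the MII oocytes, and alone made up a median 43.1% of the summed FPKM of all members in MII, against 8.45% in FGO. Psma1, another alpha subunit, had 7.06, 48.3 and 118 FPKM in MII and 0, 8.08 and 48.9 FPKM in FGO, with a ratio of 1.89. The base chaperone Psmd9 followed with 8.71, 71.9 and 145 FPKM in MII against 0, 14.3 and 115 FPKM in FGO, a ratio of 1.59. The ranges of both genes overlapped between stages, with MII higher in 89.4% and 88.1% of pairs. Psmb3, a structural beta subunit, had 3.51, 31.4 and 90.2 FPKM in MII and 0, 12.0 and 60.7 FPKM in FGO, a ratio of 1.15. The germ-cell subunit Psma8 had a ratio of 1.06 but was above 0 in only 3 MII oocytes and 2 FGO, from 11 and 9 reads.

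At the other end stood Psmb5, the subunit of the chymotrypsin-like site. It had 0, 0 and 19.2 FPKM in MII against 0, 22.7 and 85.2 FPKM in FGO, a log2 ratio of -3.04, and was above 0 in 5 of 20 MII oocytes and 17 of 18 FGO. The lid subunit Psmd6 had 0, 0 and 48.6 FPKM in MII and 1.32, 28.2 and 112 FPKM in FGO, a ratio of -2.76. Its highest MII values were the 26.2 and 48.6 FPKM of oocytes 2 and 4, above the 7.68 FPKM that no other MII oocyte passed, and without these 2 the ratio was -4.32. The ATPase Psmc2 had 0, 0 and 13.4 FPKM in MII and 0, 13.3 and 52.1 FPKM in FGO, a ratio of -2.41. The alpha subunit Psma4 had 0, 0 and 21.8 FPKM in MII and 1.78, 14.8 and 42.0 FPKM in FGO, a ratio of -2.26. Most MII oocytes listed each of these 4 subunits at 0. Psmd13, a lid subunit, was above 0 in 1 MII oocyte (oocyte 4), at 9.21 FPKM, and had 0, 4.28 and 24.7 FPKM in FGO, a ratio of -2.23, or -2.77 without oocyte 4. Psmd8, also of the lid, had 0, 2.31 and 25.5 FPKM in MII and 6.29, 17.9 and 96.5 FPKM in FGO, a ratio of -2.18. The depth of the MII oocytes, relative to the first FGO, was 0.224 to 0.878 against 0.557 to 2.40 in FGO. The part of depth in listings at 0 was not tested. Weighted by depth, the summed reads of Psmb5 gave a log2 ratio of -3.28, from 10 reads in MII (95% Poisson interval 4.80 to 18.4) and 283 in FGO (251 to 318), and those of Psmd3 gave 2.91, from 652 and 253 reads. These intervals cover counting error only.

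The other proteolytic subunits had ratios closer to 0 than Psmb5. Psmb7, of the trypsin-like site, had 0, 4.90 and 102 FPKM in MII and 6.08, 55.5 and 115 FPKM in FGO, a log2 ratio of -1.58, or -2.22 without MII oocytes 2 and 4. Psmb6, of the caspase-like site, had 0, 35.8 and 118 FPKM in MII and 1.97, 55.0 and 160 FPKM in FGO, a ratio of -0.30, and its ranges overlapped over nearly their whole length. By place in the particle, the median ratio was -0.91 over the 7 alpha subunits and -1.58 over the 7 standard beta subunits. It was -1.59 over the 6 ATPases, -1.39 over the 3 other base subunits and -1.40 over the 8 lid subunits. Without MII oocytes 2 and 4 these medians were, in the same order, -1.02, -2.22, -2.04, -1.73 and -1.83. All 6 ATPases lay between -2.41 and -1.10, or between -2.91 and -1.16 without these oocytes. Core and cap as a whole had medians of -1.13 over 16 and -1.37 over 20 members, a difference of 0.24. Without MII oocytes 2 and 4 the core and cap medians were -1.35 and -1.73. The core here includes the tissue-specific Psma8, from 11 MII and 9 FGO reads, and Psmb8, from 4 and 15. With median scaling the difference was 0.88, but all 5 tissue-specific members then entered the core. Their median was -0.76, against -1.75 over the alpha and -2.74 over the standard beta subunits. Within oocytes, the core minus cap difference of levels had an SD of 1.46 between MII oocytes and 0.35 between FGO. That is a spread between cells and does not measure the error of the differences above.

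**Figure D1:**
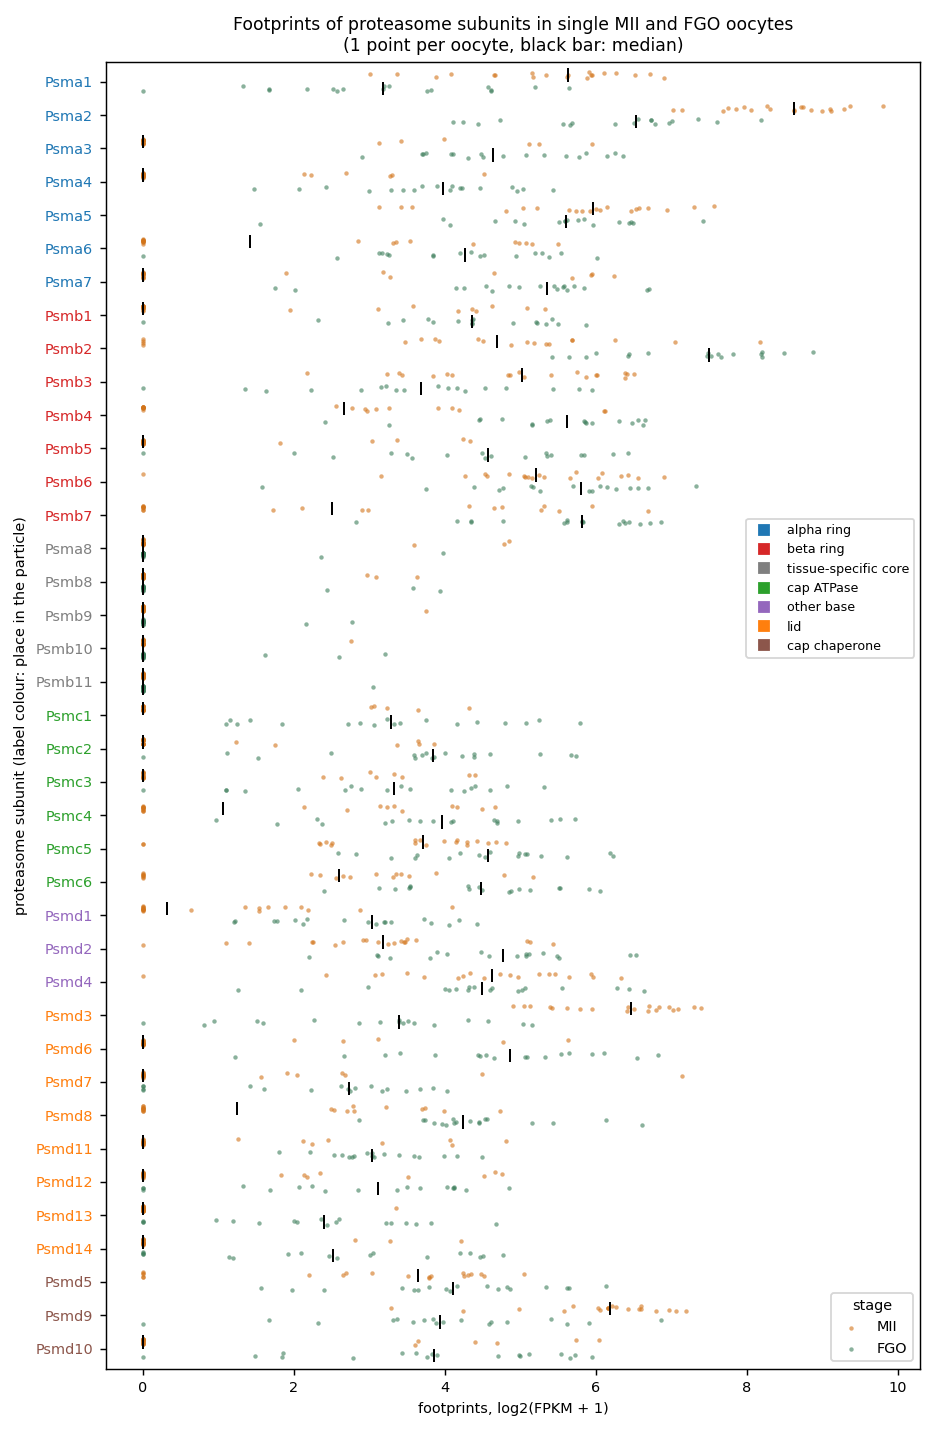
Footprints of the 39 proteasome subunits on a log2(FPKM + 1) scale, 1 point per oocyte (20 MII above, 18 FGO below for each gene) with the median as a black bar. Psmd3, Psma2, Psma1, Psmd9 and Psmb3 lie to the right in MII, most other subunits lie to the left or at 0, and Psmb8 to Psmb11 and Psma8 are at 0 in most oocytes of both stages.

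Some of these values rest on few oocytes or on the scaling. Psmd7, a lid subunit, had a ratio of 0.56 that came from MII oocyte 4 at 140 FPKM, and -1.13 without that oocyte. Psmb4 had 67.7 and 68.6 FPKM in MII oocytes 2 and 4 and at most 17.2 FPKM in the others, and its ratio of -2.09 became -3.15 without them. These 2 oocytes had 32 and 35 members above 0, the other MII oocytes 13 to 26 and FGO 28 to 36. Without them the median ratio of the members was -1.71, against -0.31 over all genes. Scaling by the median of detected genes moved the median of all genes to -1.09 and that of the members to -2.26, so the members stayed lower than all genes, by 1.17 in place of 1.09. Relative to zero, that scaling turned the ratio of Psmb3 to -0.21, of Psma5 to -0.94 from 0.33 and of Psmd7 to -0.72, while Psmd3, Psma2, Psma1 and Psmd9 remained above 0 at 1.80, 0.75, 0.69 and 0.34. With the 19 MII oocytes and 9 FGO that list no hemoglobin gene the members' median was -1.06 against 0.05 over all genes.

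The subunits of the standard particle, 31 genes once the tissue-specific and chaperone members were set aside, were less even in MII. The SD of their mean levels on the log2(FPKM + 1) scale was 1.78 in MII and 1.13 in FGO, beside 1.94 and 1.72 over all genes at 1 FPKM or more. Mean levels ran from 0.460 FPKM for Psmd13 to 397 FPKM for Psma2 in MII and from 5.77 FPKM for Psmd7 to 186 FPKM for Psmb2 in FGO. The order of the subunits in single MII oocytes was close to that in the Btg4 Het MII footprints, with a Spearman rho of 0.92 across the 31 genes, while single FGO against the Het footprints gave 0.42. This describes the genes, which share their lengths and mapping between tables that were normalized separately.

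Upstream regions are shown for the most abundant subunit in MII (Psma2) and for the subunit with the lowest ratio (Psmb5). Psmc6 and Psmd12 are shown from the 4 members that rose in both assays of the KO below. Of these 4, Psma1 had a window without the motif marked here and Psmb1 had no window. The windows shown are therefore no measure of how common the motif is. Nfe2l1, which raises proteasome genes when the particle is inhibited, is known to bind antioxidant response elements. Each line gives the 250 bases before the annotated start from RefSeq (GRCm38.p6, 5′ to 3′ on the gene's strand), with TGACNNNGC on either strand in capitals. Psma2 lies at chr13:14612992-14613241 (+), Psmb5 at chr14:54617996-54618245 (-), Psmc6 at chr14:45329574-45329823 (+) and Psmd12 at chr11:107479278-107479527 (+).
Psma2: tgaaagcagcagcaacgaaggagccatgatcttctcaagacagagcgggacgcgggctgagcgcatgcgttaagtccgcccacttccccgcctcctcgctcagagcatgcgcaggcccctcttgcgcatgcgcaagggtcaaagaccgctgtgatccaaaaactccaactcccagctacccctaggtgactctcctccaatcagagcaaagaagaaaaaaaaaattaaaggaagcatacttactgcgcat
Psmb5: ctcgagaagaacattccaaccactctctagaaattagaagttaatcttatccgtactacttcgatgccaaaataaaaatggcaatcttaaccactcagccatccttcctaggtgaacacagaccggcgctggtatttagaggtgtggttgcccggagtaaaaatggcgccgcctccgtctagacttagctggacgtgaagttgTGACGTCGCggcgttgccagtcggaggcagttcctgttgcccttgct
Psmc6: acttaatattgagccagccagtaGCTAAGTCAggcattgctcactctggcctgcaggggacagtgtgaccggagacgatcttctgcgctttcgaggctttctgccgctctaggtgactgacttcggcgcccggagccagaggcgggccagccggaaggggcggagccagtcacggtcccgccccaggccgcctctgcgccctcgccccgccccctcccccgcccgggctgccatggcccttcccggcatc
Psmd12: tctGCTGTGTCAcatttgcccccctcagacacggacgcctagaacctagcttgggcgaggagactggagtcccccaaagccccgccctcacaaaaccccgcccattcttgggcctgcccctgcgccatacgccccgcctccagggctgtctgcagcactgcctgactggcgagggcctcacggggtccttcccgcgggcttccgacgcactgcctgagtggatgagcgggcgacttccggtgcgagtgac

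The RefSeq table held 34 such windows for 32 of the 39 members, without Psma8, Psmb1, Psmb2, Psmb7, Psmc3, Psmd3 and Psmd7. The motifs were chosen after earlier values of these genes were seen. TGACNNNGC was in 5 of them, those of Psmb5, Psmb6, Psmc6, Psmd9 and Psmd12, or 14.7%, against 10.2% of all 32851 windows. Of the other motifs, each searched on both strands, CCGGAA was in 41.2% of member windows and 12.0% of all, GGGCGG in 52.9% and 32.7%, CCAAT in 38.2% and 33.8%, TATAAA in 11.8% and 12.4%, and the palindromic nuclear respiratory factor motif in 17.6% and 3.74%. GGGCGG and CCGGAA share letters and may overlap. A match is a description of the letters and not of binding.

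Loss of Btg4 was examined in MII oocytes. Btg4 footprints measured 1148, 971 and 907 FPKM in KO against 7009, 6346 and 6134 FPKM in Het. They fell by 2.69 (log2, SE 0.23; limma, adjusted p = 0.00654). Btg4 mRNA measured 1754 and 2345 FPKM in KO against 3293 and 4774 FPKM in Het, with a log2 change of -0.97 (SE 0.35) that did not pass (adjusted p = 0.0889). Both went in the direction of the labels, though Btg4 was well above 0 in every KO library.

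Proteasome mRNA measured higher in KO eggs. Smart-seq2 takes up RNA through its poly(A) tail, so amount of mRNA and its capture cannot be told apart in these values. Of 33 members tested, 21 rose and none fell, where 18.9% of the 8865 genes tested rose and 0.620% fell. The median change was 1.57 on the log2(FPKM + 1) scale, against 0.14 over all genes tested. Summed over all members, mRNA was 5403 and 6432 FPKM in KO and 3009 and 3611 FPKM in Het, or 1.25% and 1.40% of all FPKM in KO and 0.759% and 0.828% in Het. Both KO libraries lay above both Het libraries for 24 of the 33 members and below for 3, beside 38.9% and 22.0% of all genes tested. The members not tested, Psma8, Psmb8 to Psmb11 and Psmd13, averaged under 1 FPKM, and the lowest Het mean among the tested ones was the 2.00 FPKM of Psmb7. All p-values here and below are from limma, two-sided and adjusted by Benjamini-Hochberg over all genes tested.

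The largest change was that of the proteolytic subunit Psmb7, at 307 and 275 FPKM in KO against 2.16 and 1.83 FPKM in Het, higher by a log2 of 6.60 (SE 0.31, adjusted p = 0.000123). Psmb1, a structural beta subunit, had 241 and 356 FPKM in KO against 3.45 and 7.63 FPKM in Het, a change of 5.57 (SE 0.40, adjusted p = 0.000281). These 2 stood far above the rest, in which no change exceeded 2.65. Psma6, an alpha subunit, had 94.4 and 115 FPKM in KO against 15.2 and 16.5 FPKM in Het, a change of 2.65 (SE 0.30, adjusted p = 0.00109). Psmb2, a beta subunit, had 473 and 750 FPKM in KO against 78.8 and 115 FPKM in Het, a change of 2.63 (SE 0.35, adjusted p = 0.00194). The base chaperone Psmd10 had 56.1 and 83.5 FPKM in KO against 10.4 and 13.8 FPKM in Het, a change of 2.42 (SE 0.34, adjusted p = 0.00262). The groups did not overlap in any of these. The lid deubiquitinase Psmd14 had 36.0 and 47.3 FPKM in KO against 4.98 and 10.0 FPKM in Het, with a change of 2.38, and the ATPase Psmc1 had 60.4 and 78.4 FPKM against 10.4 and 17.8 FPKM, with a change of 2.25. Psmb4, a beta subunit, had 28.9 and 31.6 FPKM in KO against 6.53 and 5.27 FPKM in Het, with a change of 2.18.

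Both other proteolytic subunits changed less. Psmb5 rose, with 5.43 and 9.17 FPKM in KO against 2.2 and 1.97 FPKM in Het and a change of 1.39 (SE 0.38, adjusted p = 0.0337). Psmb6 had 114 and 174 FPKM in KO against 69.1 and 106 FPKM in Het and a change of 0.71 (SE 0.35, adjusted p = 0.193). The call for Psmb5 was lost under 6 of 10 alternatives, with adjusted p up to 0.273, while that for Psmb7 held under all 10, up to 0.0324.

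By place, 4 of 7 alpha subunits rose, 5 of 7 standard beta subunits, 6 of 6 ATPases, none of the 3 other base subunits, 4 of 7 lid subunits tested and 2 of 3 base chaperones, beside 18.9% of all genes. The ATPases had changes between 1.42 and 2.25. With median scaling 3 of the 6 ATPases were called, and without the filter on low values none was, where 555 of 15509 genes rose. Core members had 9 of 14 called and cap members 12 of 19, with median changes of 1.53 and 1.57, a difference of -0.04. Within libraries, the median core level minus the median cap level was 1.702 and 1.661 in KO against 1.201 and 0.895 in Het. By that measure KO was higher without overlap, unlike the difference of median changes, and this was not tested. The spread of these levels between libraries, 0.22, does not measure the error of the difference of -0.04. The 12 members not called included the member with the most mRNA, the alpha subunit Psma7, at 1084 and 1251 FPKM in KO against 1154 and 1203 FPKM in Het. They also included Psma2, at 925 and 1167 FPKM in KO against 552 and 882 FPKM in Het. Psmd3 had 21.9 and 15.0 FPKM in KO against 70.5 and 33.0 FPKM in Het, with a change of -1.37 (SE 0.42, adjusted p = 0.0546). The base scaffold Psmd1 had 63.9 and 49.1 FPKM in KO against 112 and 99.2 FPKM in Het, with a change of -0.90 (SE 0.30, adjusted p = 0.0734). In both, KO lay below Het without overlap. Median scaling of the libraries called both as lower, moved the median of all genes from 0.14 to -0.26 and left 14 members higher and 2 lower, beside 999 and 929 of all genes. Relative to that median the members' excess was 1.33, against 1.43 unscaled.

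Footprints in KO eggs rose for 6 of 34 members tested and fell for none, where 3.21% of the 8526 genes tested rose and 0.328% fell. The median change was 0.94, against 0.27 over all genes tested. Summed over all members, footprints were 5500, 4927 and 4672 FPKM in KO and 3094, 2402 and 2184 FPKM in Het, or 0.495% to 0.565% of all FPKM in KO and 0.249% to 0.268% in Het. All 3 KO libraries lay above all 3 Het libraries for 10 members and below for 4, beside 16.8% and 7.69% of all genes tested. Of the members, 4 (Psma4, Psmb5, Psmc3 and Psmd13) averaged under 1 FPKM in Het and entered through KO, and none of these was called. Without any one of the 3 KO libraries no gene of the whole table passed, with 9 to 12 members at an unadjusted p below 0.05, and the calls rest on all 3.

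The ATPase Psmc6 had 269, 363 and 215 FPKM in KO against 17.0, 7.69 and 33.6 FPKM in Het, higher by a log2 of 3.98 (SE 0.56, adjusted p = 0.0202). Psma7 had 436, 475 and 341 FPKM in KO against 29.5, 14.9 and 38.9 FPKM in Het, a change of 3.95 (SE 0.43, adjusted p = 0.0116). Psmb1 had 202, 156 and 163 FPKM in KO against 18.2, 4.77 and 12.5 FPKM in Het, a change of 3.92 (SE 0.53, adjusted p = 0.0181). In all 3 genes the lowest KO library was several times the highest Het library. The lid subunit Psmd12 had 56.7, 99.6 and 59.8 FPKM in KO against 2.16, 4.24 and 8.33 FPKM in Het, a change of 3.72 (SE 0.57, adjusted p = 0.0238). Psmd7 had 106, 193 and 93.6 FPKM in KO against 18.2, 22.7 and 34.0 FPKM in Het, a change of 2.32 (SE 0.45, adjusted p = 0.0453). Psma1 had 559, 813 and 509 FPKM in KO against 174, 198 and 154 FPKM in Het, a change of 1.81 (SE 0.31, adjusted p = 0.0315). The call for Psmd7 was lost with replicate number as a block (adjusted p = 0.0552), and under each of the other 11 alternatives, where adjusted p ran from 0.0521 to 0.167. Behind these values were few reads in Het, 13, 3 and 10 for Psmc6 and 2, 2 and 3 for Psmd12, against 114, 217 and 134 and 29, 72 and 45 in KO.

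Of the proteolytic subunits, none was called in footprints. Psmb7 had 68.9, 41.0 and 34.5 FPKM in KO against 46.0, 11.8 and 15.4 FPKM in Het, a change of 1.13 (SE 0.61, adjusted p = 0.384). Psmb6 had 125, 116 and 124 FPKM in KO against 103, 101 and 177 FPKM in Het, a change of -0.01 (SE 0.35, adjusted p = 0.992). Psmb5 was above 0 in 1 library of each genotype, at 34.8 FPKM in KO and 2.13 FPKM in Het. Psma2 had the highest footprints of the members, at 1968, 1624 and 2060 FPKM in KO against 1524, 776 and 796 FPKM in Het, with a change of 0.94 (SE 0.34, adjusted p = 0.212). Core and cap had 3 members called each and median changes of 1.04 and 0.89, a difference of 0.15. Within libraries, the median core level minus the median cap level was 2.22, 1.75 and 3.26 in KO against 1.74, 1.03 and 2.77 in Het. By that measure KO was higher in each same-numbered pair, though the libraries overlapped, and this was not tested.

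**Figure D2:**
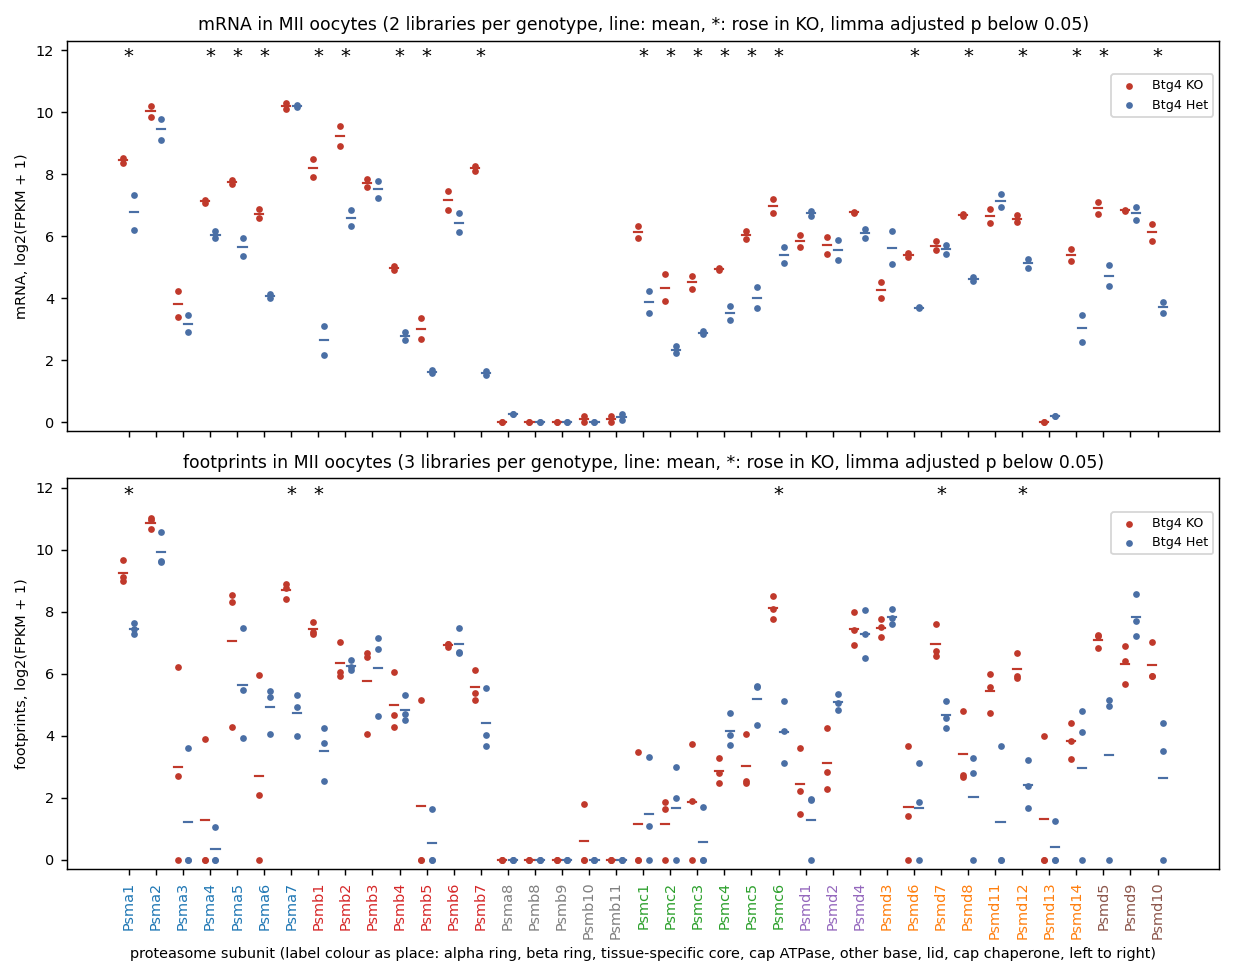
Levels of the 39 proteasome subunits in MII oocytes on a log2(FPKM + 1) scale, mRNA above (2 libraries per genotype) and footprints below (3 per genotype), with Btg4 KO left of Het for each gene, points for libraries and lines for means. Asterisks mark the 21 members that rose in mRNA and the 6 that rose in footprints, and all 6 ATPases (Psmc) are marked in mRNA, calls that were lost without the filter on low values, but only Psmc6 in footprints.

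The mRNA and footprint changes of the members did not follow each other. Across the 33 members tested in both assays the Spearman rho of the changes was -0.01, and over all 7382 genes it was 0.19, with separate libraries for each assay. Psma1, Psmb1, Psmc6 and Psmd12 rose in both, Psma7 and Psmd7 rose in footprints alone, and 17 members were called in mRNA alone. Called in one assay and not in the other does not show a difference. The difference was therefore tested as footprint efficiency, the KO change in footprints minus that in mRNA. Its mRNA part carries the limit given above, that amount and capture through the tail cannot be told apart. Of the 33 members, 1 rose and 1 fell, beside 0.853% and 0.447% of the 7382 genes tested. The median was -0.65, against 0.24 over all genes tested.

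Psma7 rose in efficiency by 3.96 (SE 0.56, adjusted p = 0.0178), with level mRNA in both genotypes and the rise in footprints given above. Its footprints per mRNA stood at the 0.257th percentile of all tested genes in Het and the 17.8th in KO, and the log2 ratio of footprints to mRNA was -1.48 in KO and -5.36 in Het. Psmb7 fell by 5.47 in efficiency (SE 0.82, adjusted p = 0.0218), with a ratio of -2.57 in KO and 3.08 in Het. Both calls depend on single libraries. The call for Psma7 was lost with the replicate block (adjusted p = 0.0558). Psmb7 kept its call there but lost it without the second or the third KO footprint library. Without any one of the 4 mRNA libraries no gene of the table passed, with 8 to 10 members at an unadjusted p below 0.05. Over the 16 alternatives adjusted p ran from 0.0157 to 0.137 for Psma7 and from 0.01000 to 0.160 for Psmb7. All 7 standard beta subunits had efficiency changes below 0, with -0.22 as the one nearest to 0. So did 5 of 6 ATPases, with a median of -2.52, and Psmb7 alone among these 13 passed the test. The sign was not kept under all alternatives: Psmb5 ran from -0.55 to 0.64, Psmb3 from -1.43 to 0.20 and Psmc3 from -0.60 to 0.65. Alpha and lid subunits went both ways, from -4.88 (Psma6) to 3.96 (Psma7) and from -1.64 (Psmd6) to 4.70 (Psmd11). The share of all genes with a change below 0 is not given here, so these signs are a description of the members only. The ATPases Psmc4 and Psmc5 were higher in mRNA and lower in footprints in every KO library: Psmc5 had 15.7, 4.76 and 4.57 FPKM of footprints in KO against 47.1, 19.5 and 47.8 FPKM in Het, with an efficiency change of -4.18 (SE 0.88, adjusted p = 0.0614).

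**Figure D3:**
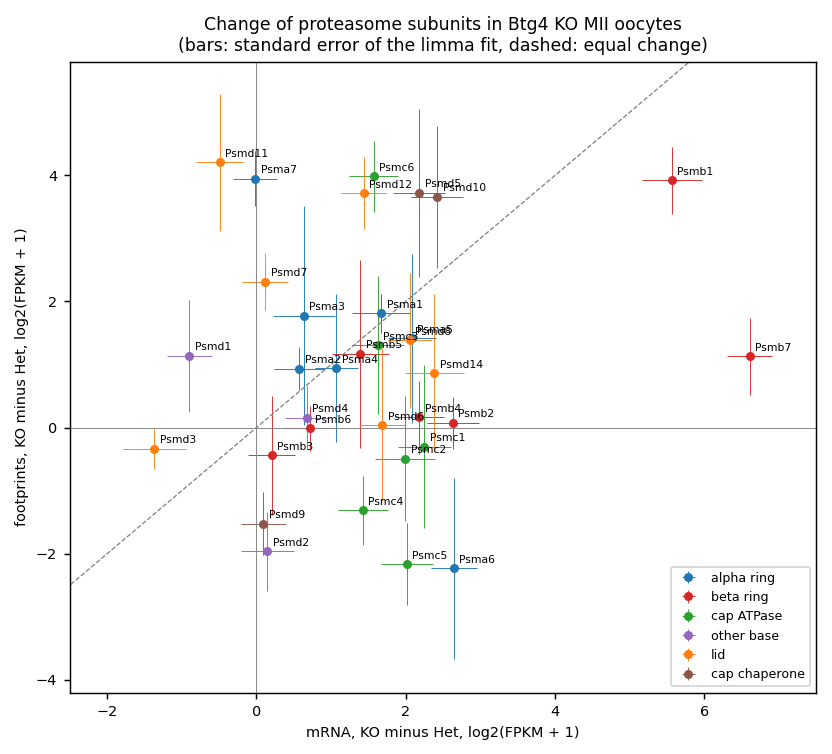
Change in Btg4 KO relative to Het of 33 proteasome subunits, mRNA on the x axis and footprints on the y axis, both in log2(FPKM + 1) with standard errors from the limma fit and a dashed line of equal change. Psmb7 and Psmb1 lie far right in mRNA, Psma7 lies at 0 in mRNA and 3.95 in footprints, and most ATPases lie below the line.

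The maturation ratio and the KO change come from separate tables and libraries, and were set side by side. Of the 20 members tested in mRNA with a log2 ratio of MII over FGO of -1 or less, 16 rose in KO mRNA (80.0%), where 38.1% of all 2300 such genes rose. Of the 7 members with a ratio above 0, 2 rose (Psma1 and Psma5), or 28.6%, where 7.17% of 3680 such genes did. The median KO change was 1.84 in the first set and 0.21 in the second, against 0.89 and -0.31 over all genes of these classes. Psmd3, Psma2, Psmd9, Psmb3 and Psmd7 were those with a ratio above 0 that were not called. Across members the Spearman rho of the ratio and the KO mRNA change was -0.36 (33 genes), and over all genes -0.56 (7739 genes). For KO footprints it was 0.01 across 34 members and -0.17 across 7583 genes.

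**Figure D4:**
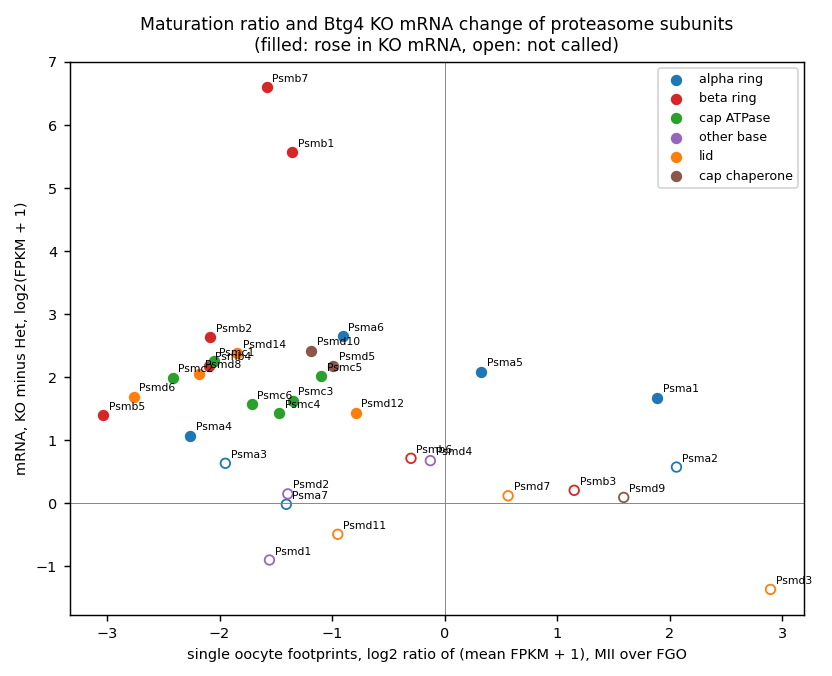
Log2 ratio of footprints in single MII over FGO oocytes (x axis) and change of mRNA in Btg4 KO relative to Het (y axis, log2(FPKM + 1)) for 33 proteasome subunits, filled where the mRNA rose in KO. Filled points lie mostly left of 0, and right of 0 only Psma1 and Psma5 are filled.

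Other genes of the pathway were taken from a list of 38, of which 31 were tested in mRNA and 27 in footprints. In KO mRNA 9 rose and none fell, and the median change was 0.83, against 0.14 over all genes tested, of which 18.9% rose and 0.620% fell. With median scaling 6 of the 31 were higher and 4 lower, beside 999 and 929 of all 8865 genes. In footprints none was called, where 3.21% of all genes rose, 8 had an unadjusted p below 0.05 in the limma fit, and the median was 0.85, against 0.27 over all genes. With the replicate block Sem1 was called in footprints (limma, adjusted p = 0.0315, and 0.0716 without the block). The largest called change was that of Rps27a, a ubiquitin precursor fused to a ribosomal protein, at 66.1 and 76.6 FPKM in KO against 1.74 and 2.43 FPKM in Het. Sem1, a small lid component outside the Psm names, had 528 and 709 FPKM in KO against 49.0 and 84.8 FPKM in Het, higher by a log2 of 3.23 (SE 0.35, adjusted p = 0.000923). Ubiquitin genes share coding repeats, and the split of reads among them is uncertain. Psmg3, an assembly chaperone of the core, and Usp14, a deubiquitinase bound to the cap, rose by 2.53 and 2.47. By group, 2 of 5 genes tested from the assembly list rose, Psmg3 and Pomp, while Psmg1, Psmg4 and Nob1 were not called. So did 1 of 4 activators and inhibitors, 4 of 5 cap partners, 2 of 6 ubiquitin and E1 genes, and none of 7 shuttle factors or of 4 regulators. Nfe2l1 had 8.90 and 5.66 FPKM in KO against 10.0 and 4.48 FPKM in Het.

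Tail lengths were listed for 33 members in FGO WT, with a median of 53.4 nucleotides (quartiles 49.1 to 61.3), against 54.1 (45.2 to 63.2) over 6353 genes. Psma8, Psmb8 to Psmb11 and Psmd13 had no value. The longest FGO tails were those of Psmb2 at 79.3 and the base scaffold Psmd2 at 76.1 nucleotides, and the shortest were those of Psmd7 at 34.5 and Psmc2 at 41.6. The 14 core members had a median of 53.7 and the 19 cap members one of 51.9 nucleotides. Few members had a value in MII: 9 and 14 in the KO libraries, 5 in Het and 2 in WT, where 867, 1416, 598 and 229 genes had one. A gene without a value was not measured, so the members seen in MII are a selected set.

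In KO eggs, tails of the members differed widely. Psmc6 had 133 nucleotides in the first KO library, against 54.5 in FGO. Psma5 had 101 and 73.8 in KO against 54.0 in FGO, and Psma7 had 67.4 and 81.9 in KO against 43.1 in FGO. These 3 were longer than in FGO wherever listed. In contrast Psmb7 had 19.2 in 1 KO library against 58.8 in FGO, Psmc1 had 19.8 against 51.0, and Psmb1 had 36.2 and 30.2 in KO against 43.8 in FGO. Psmb2 had 44.7 and 30.9 in KO and 31.3 in MII WT, against 79.3 in FGO. Psma2 had 112 in 1 KO library and 109 in Het, against 52.8 in FGO, and Psmd3 had 95.1 in Het against 60.0 in FGO. Of the other members with a KO value in the second library only, Psma1 had 72.0 in KO against 61.7 in FGO, Psmb6 58.2 against 49.1, Psmd12 52.0 against 46.8, Psmd4 34.9 against 46.6 and Psmd8 37.0 against 62.2. Relative to FGO, 6 of 14 members were longer and 8 shorter in the second KO library, beside 486 and 870 of 1356 genes.

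Psmd2, Psmd9 and Psmb3 had values in both KO libraries and in Het. Tails over all genes listed were also shorter in KO, with medians of 42.4 and 43.1 nucleotides against 73.4 in Het. That median was 47.5 in MII WT, and the genes listed differed between these libraries. Psmd2 had 38.4 and 25.6 nucleotides in KO against 66.3 in Het, a difference of -34.3 (SE 10.1, adjusted p = 0.274). Psmd9 had 28.1 and 41.2 in KO against 52.4 in Het, a difference of -17.8 (SE 10.2, adjusted p = 0.405), with 41.1 in MII WT and 60.9 in FGO WT. Psmb3 had 65.6 and 39.2 in KO against 73.3 in Het, a difference of -20.9 (SE 16.5, adjusted p = 0.513), with 60.5 in FGO. All 3 were shorter in both KO libraries, and none passed. Between stages, Psmb2 was shorter by 48.0 nucleotides in MII WT than in FGO WT (SE 11.8, adjusted p = 0.207) and Psmd9 by 19.9 (SE 11.5, adjusted p = 0.419). No gene passed in either comparison, or 0% of the 272 and 152 genes tested, with 49 and 31 at an unadjusted p below 0.05. The KO pair gave the fit its 1 residual degree of freedom, which takes single libraries to vary like that pair.

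**Figure D5:**
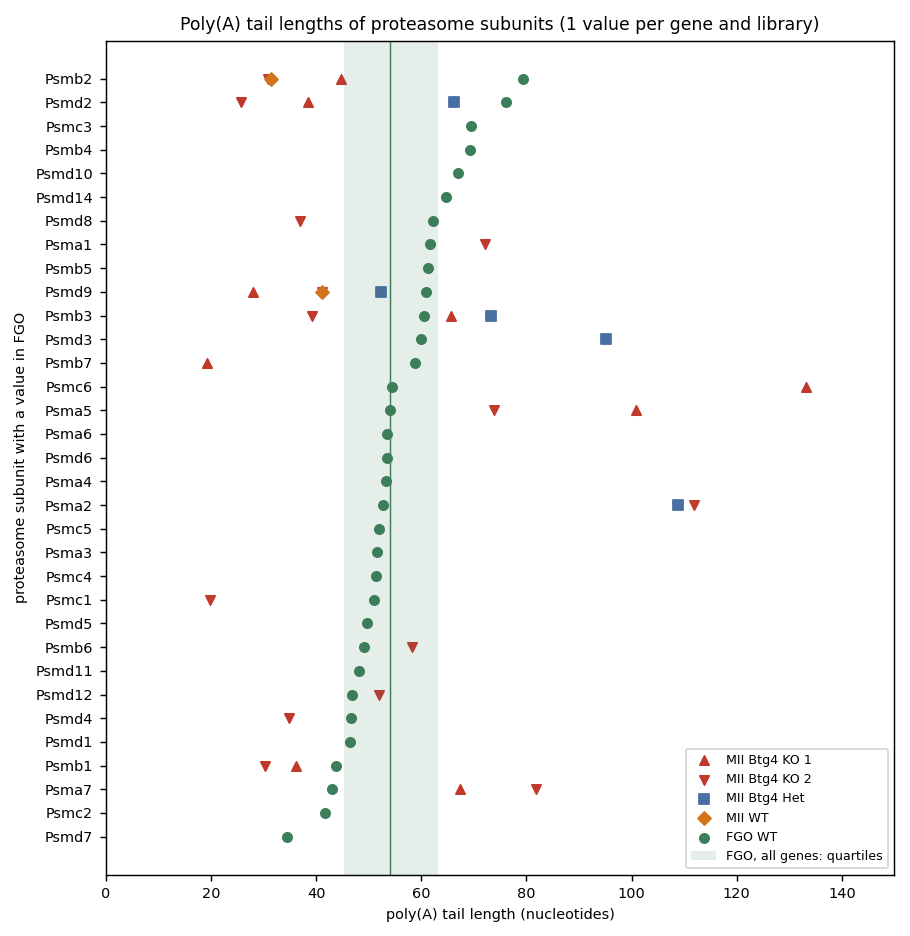
Poly(A) tail length in nucleotides (x axis) of the 33 proteasome subunits with a value in FGO WT, 1 symbol per library, ordered by the FGO value, with the quartiles and the median of all genes in FGO shaded. FGO values lie between 34.5 and 79.3, while MII values spread from 19.2 to 133.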

How the data were processed

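The authors deposited FPKM for footprints and for mRNA. The submitters' processing notes list Cufflinks 2.2.1, STAR 2.5.3a, Trim Galore 0.4.2, cutadapt 1.14 and Bowtie2 2.2.2. They also name hg19 and mm9, and give no tool or build a role. The labels name no spike-in. The authors also deposited a tail length per gene, in nucleotides, where 0 means no value. For the tail caller and its minimum of reads, nothing is stated in the sources used here. From the Btg4 FPKM, 231 exact repeats of rows were dropped. Of 105 samples in the labels, 53 had values, and the other 52 were not analysed here. The authors' averages and merged columns (6) were not used.

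The comparison of KO with Het used R 4.3.3 and limma 3.58.1, with a trended empirical Bayes variance, on log2(FPKM + 1) over genes averaging at least 1 FPKM, a scale on which changes of low genes come out too small. A gene was called at an adjusted p below 0.05. Efficiency was the interaction of genotype and assay, and takes a gene to vary alike in both assays. Tail differences were taken directly between libraries, using the mean of the KO pair where KO was compared. Their error came from that pair alone, moderated over genes by limma. Fits were tested on simulated data. Whole reads were recovered for 10328 genes and 30 members, where 98.3% of values below 12 reads were whole within 0.03 reads, these genes having been chosen for that. Read totals therefore serve as a measure of relative depth, and counts were not modelled. Poisson intervals are at 95%.

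Replicates had Pearson correlations over genes of 0.966 (KO) and 0.958 (Het) in mRNA, and of 0.718 to 0.813 (KO) and 0.699 to 0.815 (Het) in footprints. Deviations of same-numbered KO and Het footprint libraries correlated at 0.255, 0.422 and 0.162, and those of different numbers at -0.319 to 0.098. Same-numbered libraries thus deviated together more than others, but the labels state no pairing. Calls are from the fit without a block, and the replicate block is given as an alternative. The members and lists were chosen with earlier results of these data known. Named are Btg4, the 3 proteolytic subunits, the 8 largest called changes in mRNA and in footprints, members called in efficiency or as lower, the 6 lowest and 6 highest maturation ratios, all tails with an MII value and the 5 largest called pathway changes, of which 1 is not reported here. Other members named with values were chosen after these were seen. Alternatives were another pseudocount (0.1), no filter, quantile and median scaling, the replicate block and leaving out libraries or oocytes. Other steps ran in Python 3.11.15 with matplotlib 3.10.9, pandas 2.3.3 and numpy 2.4.6.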

Additional observations from a re-analysis of the deposited data

Results flagged for a closer look

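In Psma7 the effect of the Btg4 KO on footprints differed from that on mRNA by 3.96 on the log2 scale (limma interaction, adjusted p = 0.0178), with KO footprints above Het in 3 of 3 libraries and overlapping mRNA. In Psmb7 it differed by -5.47 (adjusted p = 0.0218), with KO mRNA above Het in 2 of 2 libraries and overlapping footprints. Over the alternatives adjusted p ran from 0.0157 to 0.137 for Psma7 and from 0.01000 to 0.160 for Psmb7. Footprint and mRNA values come from separate libraries, and reads of Psma7 could not be recovered.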

How the results depend on the processing

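In mRNA 15 to 20 members were called when 1 library was left out, the lowest count without the second KO library, and 9 without the filter on low values, all 9 among the 21. Of the 8 largest mRNA changes, those of Psmc1 and Psmd14 lost their call without the filter and the other 6 kept theirs under all 10 alternatives. The replicate block called 25 members higher and 3 lower in mRNA (28 in all), but there the numbers of 2 pairs only name the libraries (correlation of deviations 0.627). In footprints 0 to 5 members were called when 1 library was left out (0 without any KO library, 3 without the second or the third Het library), 5 with the replicate block, and 2 when libraries were scaled by the median of tested genes, an alternative chosen after seeing the data. In efficiency the replicate block left 1 call, and 0 to 4 remained when 1 library was left out, with Psma6 and Psmc5 added without the first KO footprint library. The block also ended the footprint call of Psmd7, added one for Sem1 and added an efficiency call for Btg4 (limma, adjusted p = 0.0494, and 0.0672 without it). It changed no other call of the genes listed in footprints or efficiency. The median maturation ratio was -2.53 when medians over oocytes replaced means, and between -1.55 and -1.23 when 1 oocyte was left out. Reads over depth and scaling to the same sum, also chosen after seeing the data, gave -1.43 and -1.60. The core minus cap difference in mRNA was -0.43 without the filter, where it was -0.04, and between -0.04 and 0.18 when 1 library was left out. In single oocytes it ran from 0.12 to 0.36 and in footprints from -0.12 to 0.41 when 1 was left out. No tail comparison made a call under log2 lengths or with genes listed in all 5 libraries. Median FGO tail length kept within the spread of the KO pair. No blocked fit was made for tails or single oocytes, where no numbers pair. Summed over the MII oocytes, 3 of the 30 members with recovered reads (Psmb8, Psmb10 and Psmd13) had under 10 reads.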
